A study of Mus musculus with 20 samples.

Results

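Kidneys injured by ischemia and reperfusion were compared with untouched kidneys, as 4 IRI arrays against 4 Control arrays, which are 8 of the 20 arrays of the series. The arrays were assigned by their sample titles, and all genes on the array were examined. The mice were C57BL/6 males of 8 to 12 weeks. In the IRI group both renal pedicles were clamped for 45 min through a midline incision under Ketamine-Xylazine anaesthesia, and the tissue was taken after 6 h of reperfusion. The Control mice had neither surgery nor treatment, so that the effects of anaesthesia and laparotomy and those of ischemia cannot be told apart here. Total kidney RNA was labelled with Cy3 and hybridised to single-colour Agilent whole mouse genome arrays. Neither the labels nor the methods used here say that each array stands for a separate animal, and the p-values measure the spread between these arrays. Each group was hybridised on a slide of its own, so that the group and its slide cannot be told apart. Both slides were scanned on the same day.

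When blood flow to the kidney stops, the proximal tubule and the thick ascending limb, which depend on oxidative metabolism to drive salt transport, run short of ATP, and the return of oxygen adds oxidative stress. Early after reperfusion, kinase cascades switch on immediate early genes without new protein synthesis, and injured tubular cells release chemokines that recruit neutrophils and monocytes. Surviving tubular cells lose polarity, express keratins and injury markers, and later divide to repair the epithelium.

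Levels are given on a log2 scale as the background-subtracted signal divided by the 75th percentile of its own array, so that 0 is that percentile, and changes are differences of mean log2 levels, IRI minus Control. A gene was called when its adjusted p in limma was below 0.05. The verbs rose and fell are used for called genes. In bulk tissue fewer cells of a type and less RNA per cell cannot be told apart. Signals of different genes come from different probes and are not set against each other.

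The arrays were checked before the comparison. Transcripts that define kidney epithelium were well above background on all 8 arrays, among them Slc34a1, the phosphate carrier of the proximal tubule, at 7.30 to 7.73 in Control and 7.22 to 7.70 in IRI, and Umod, the uromodulin of the thick limb, at 7.33 to 7.74 and 7.31 to 7.78. The share of genes well above background, a flag of the scanner software, was 63.3% to 64.1% in the Control arrays and 57.4% to 62.1% in the IRI arrays, and the groups did not overlap (exact permutation test, two-sided p = 0.029, the smallest that 4 against 4 arrays allow). Markers of fat tissue stood far apart on 3 arrays. Adipoq, which encodes the fat hormone adiponectin, was at 2.46 on Control 2, 2.67 on IRI 1 and 0.57 on IRI 4, and between -7.08 and -6.70 on the other 5 arrays. Cfd, the fat-cell protease adipsin, was at 5.30, 6.00 and 3.71 on the same arrays. The summed level of the adipose markers reached from -0.62 to 6.09 in Control and from 0.80 to 6.53 in IRI (exact p = 0.34). The counts of the gene lists in IRI against Control were therefore also made without these 3 arrays, a setting chosen after the data were seen, and are given where they moved by over 1.5 times.

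**Figure D1:**
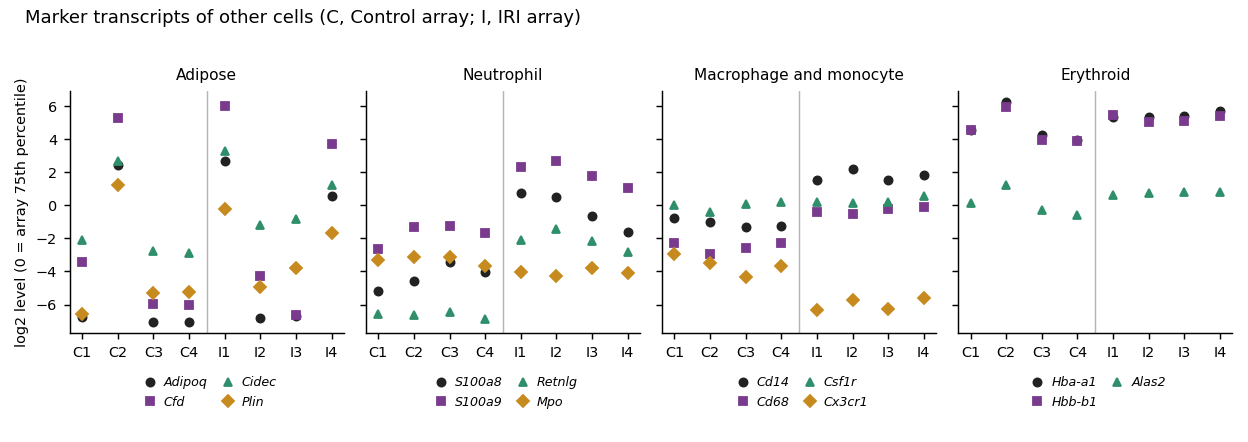
Log2 levels (vertical axis, 0 is the array's 75th percentile) of marker genes of fat, neutrophils, macrophages and red cells in each of the 4 Control arrays (C1 to C4) and 4 IRI arrays (I1 to I4, right of the grey line), with 1 symbol per gene. The fat markers stood high on Control 2, IRI 1 and IRI 4 alone, while S100a8, S100a9 and Retnlg separated all IRI from all Control arrays.

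Of 17719 genes tested, 3023 rose (17.1%) and 6007 fell (33.9%). At least 2-fold changes were called for 1058 genes upward (5.97%) and 2533 downward (14.3%). The arrays of the groups did not overlap in 2626 genes with IRI above (14.8%) and in 5541 with IRI below (31.3%). The median change of all genes tested was -0.17. Rises therefore made up 33.5% of the calls, but 56.2% with normexp, another correction of the local background, under which 1789 genes rose and 1394 fell, and 20.3% in the log2 matrix that the authors deposited.

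The excess of falls was largest among genes with weak signals. Among the 5907 genes with the lowest mean level, up to -2.20, 52.9% fell and 9.90% rose, and their median change was -0.67. Among the 5906 with the highest level, from 0.49 upward, 16.1% fell and 21.7% rose, with a median of 0.00, though with quantile normalization 1504 of them fell and 1059 rose. Of the 5906 genes between these, 1929 fell and 1158 rose. Of the 2533 falls of at least 2-fold, 1906 were among the weakest genes and 104 among the brightest. With normexp, 22 of the weakest genes fell and 191 rose. Among the rises, 1788 of 3023 were also called with normexp, against 1374 of the 6007 falls. The share of genes well above background, lower in IRI as given above, moves with these falls, and its part in them was not tested. Sizes moved as well. Of the 153 named genes that were called, 57 had a log2 change with normexp smaller by over 1.5 times than the one given here. For 0 of them was it larger by that factor. In these smaller sizes and in the lost calls, the offset and the rest of the correction cannot be told apart.

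**Figure D2:**
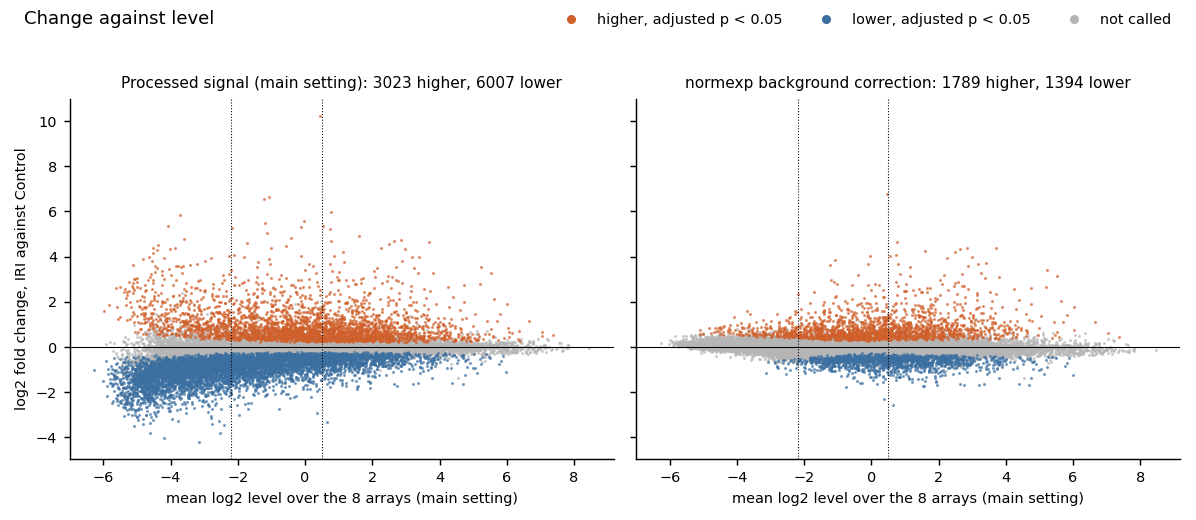
Log2 fold change of IRI against Control (vertical axis) against the mean log2 level over the 8 arrays (horizontal axis), 1 point per tested gene, with the processed signal on the left and with normexp on the right, and dotted lines between the weakest, the middle and the brightest genes in equal numbers. The cloud bends downward at low levels with the processed signal, where 6007 genes fell, and is flat there with normexp, where 1394 fell.

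Immediate early transcription factors, the genes that cells switch on within minutes of a stimulus, rose nearly throughout. Of 26 tested, 25 rose, beside 17.1% of all genes, with a median change of 2.51 beside -0.17 over all genes. Klf2, a factor of quiescent endothelium, did not pass the test (-0.23). Fosl1, which pairs with Jun proteins in the AP-1 complex, was at -4.53, -4.46, -4.14 and -4.90 in the Control arrays, where 1 of 4 was well above background, and at 1.59, 1.98, 2.21 and 2.39 in the IRI arrays. Its probe lies at chr19:5455496-5455555 in the mm9 build of the array annotation, and its change was 6.55 ± 0.27 (SE, adjusted p = 2.24e-11), or 3.63 with normexp. As 3 of its Control values were not well above background, it was tested through the IRI arrays alone and this size is uncertain. Among the 25 genes of the list that passed the filter in Control 24 rose. Maff, a small Maf protein that binds DNA as a partner of other leucine zippers, was at -2.50, -2.24, -1.73 and -2.44 in Control and at 3.07, 4.52, 3.79 and 3.65 in IRI. It rose by 5.98 ± 0.27 (adjusted p = 5.63e-11). For both genes every IRI array lay above every Control array, by far more than the spread within a group.

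Atf3, a stress-induced repressor, rose by 5.57 ± 0.58 and Myc, which drives growth and ribosome synthesis, by 4.05 ± 0.26. Fos, the prototype of the class, was at -2.50, -3.89, -1.61 and -0.48 in Control and at 0.87, 3.13, 1.69 and 1.90 in IRI. Egr1, a zinc finger factor induced by growth signals, was at 1.00, -0.16, 2.36 and 2.64 and at 3.58, 5.53, 4.08 and 4.00. These genes differed strongly between the Control arrays themselves, with an SD of 1.44 for Fos and 1.30 for Egr1, and the IRI arrays still lay above all of them. The changes were 4.01 ± 0.67 for Fos (adjusted p = 9.09e-05) and 2.83 ± 0.55 for Egr1 (adjusted p = 3.43e-04). Jun rose by 1.70 ± 0.25 and Fosb by 4.37 ± 0.68 (2.79 with normexp). Klf6, a zinc finger factor, rose by 3.55 ± 0.21. All 25 were also called with normexp and with quantile normalization.

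Genes listed as feedback of MAP kinase signalling, not all of which damp it, rose with them. Of 16 tested, Sphk1 included, 15 rose, beside 17.1% of all genes, with a median of 1.31. Among the 15 genes that passed the filter in Control 14 rose, and 1 rise was tested through the IRI arrays alone. Spry4 did not pass (0.57), though it passed with quantile normalization (0.99) and without Control 3. Dusp8, a phosphatase that inactivates stress kinases, was at -2.70, -2.08, -1.95 and -2.52 in Control and at 0.25, 1.21, 0.99 and 1.06 in IRI, a rise of 9.14-fold (adjusted p = 4.85e-09), with a log2 change of 3.19, or 1.96 with normexp. Dusp2 rose 8.42-fold and Dusp1, which is itself an immediate early gene, 3.23-fold. The largest rise of the list was that of Sphk1, which is not a phosphatase but makes the lipid mediator sphingosine 1-phosphate, at 0.71, -0.34, 0.07 and -0.19 in Control and 4.44, 4.87, 4.38 and 4.07 in IRI. That is a rise of 20.8-fold (adjusted p = 2.13e-10).

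Targets of YAP and SRF, coactivator and transcription factor that respond to the actin cytoskeleton, rose in 24 of 28 cases, beside 17.1% of all genes. Their median was 1.11. Plaur, the receptor of urokinase at the cell surface, was at -1.39, -1.81, -1.44 and -1.64 in Control and at 2.67, 3.23, 3.22 and 3.43 in IRI. It rose 26.1-fold (adjusted p = 1.41e-10). Cyr61, a matrix protein induced by YAP, rose 8.87-fold and Ankrd1, another standard YAP target, 6.02-fold (2.59 as a log2 change, 1.47 with normexp). Tubb6, a tubulin, rose 9.84-fold over its probes, which disagreed and gave changes between -1.15 and 3.63. Among the members that did not pass were Actb (-0.09) and Cald1 (-0.02), while Actg1, the other cytoplasmic actin, rose by 0.79.

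**Figure D3:**
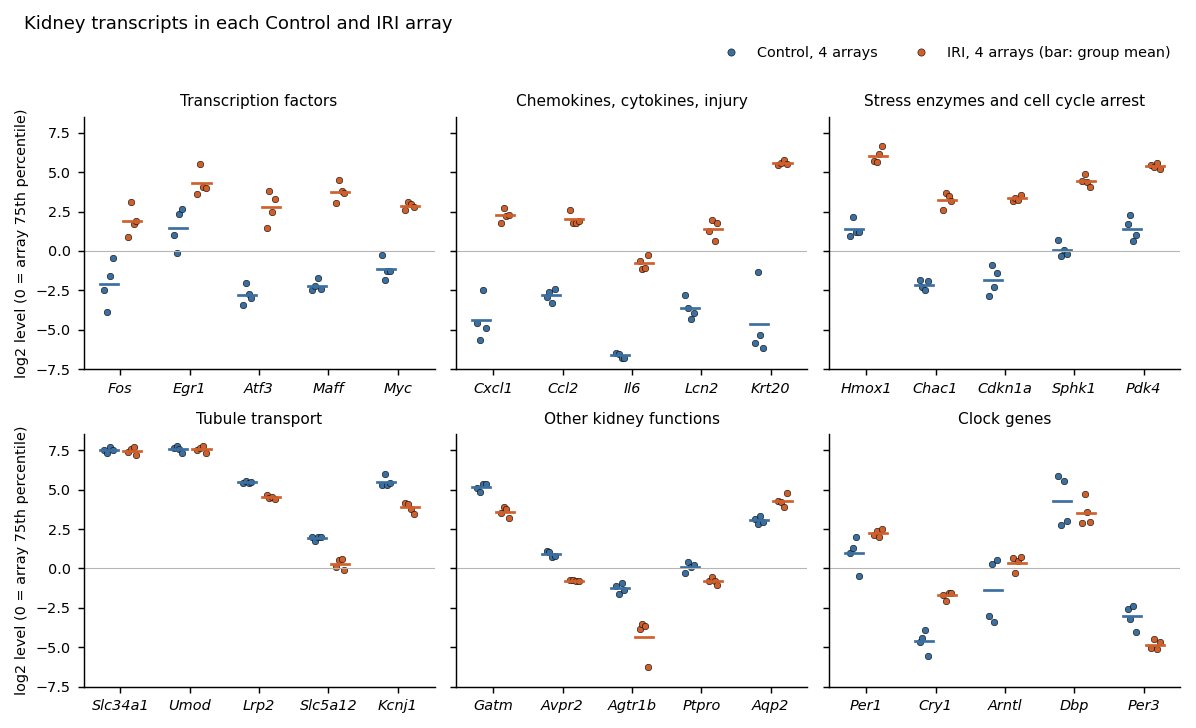
Log2 levels (vertical axis, 0 is the array's 75th percentile) of 30 genes in 6 groups, with 1 point per array for Control (blue) and IRI (orange) and a bar at each group mean. Krt20 parts the groups most, though 3 of its Control values were not well above background, Slc34a1 and Umod lie at the same place in both, and the clock genes Arntl and Dbp fall into separate pairs within the Control arrays.

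Cytokines and chemokines rose in 14 of 21 tested cases and fell in 2, beside 17.1% and 33.9% of all genes, with a median of 1.97. Of the 14, Cxcl1, Il6, Cxcl2, Ccl7, Csf3 and Il1rn were tested through the IRI arrays alone, since at most 1 Control array was well above background, so that the count and the median partly follow from the filter. Among the 15 genes that passed the filter in Control, 8 rose. Cxcl1, which attracts neutrophils, was at -4.58, -5.65, -2.50 and -4.88 in Control, where 1 of 4 arrays was well above background, and at 1.75, 2.75, 2.24 and 2.27 in IRI. The change was 6.66 ± 0.52 (adjusted p = 2.68e-08), or 3.87 with normexp, and every IRI array stood above every Control array. With 3 Control values not well above background, its size is uncertain. Ccl2, which recruits monocytes, was at -2.93, -2.61, -3.31 and -2.44 in Control and at 2.61, 1.79, 1.74 and 1.91 in IRI, a rise of 28.5-fold (adjusted p = 2.26e-07), with a log2 change of 4.83, or 3.20 with normexp. Il6, the cytokine of the acute phase, was not well above background on any Control array and was at -0.65, -1.13, -1.10 and -0.28 in IRI, at least 24.3-fold higher (adjusted p = 2.61e-08), though its log2 change was 1.61 with normexp. The chemokines Ccl7 and Cxcl2 were likewise measured in IRI alone, at least 12.6-fold and 4.25-fold higher, with log2 changes of 1.06 and 0.73 with normexp.

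Csf1, the growth factor of macrophages, rose 7.25-fold and Il34, the other ligand of its receptor, 7.09-fold. Cxcl10, induced by interferons, rose 8.60-fold, with IRI arrays between 1.74 and 3.51. The members that fell were Osm (-1.03) and Il10 (-0.43), both with weak signals and not called with normexp, and both tested through the Control arrays alone, and Tnf (-0.13) did not pass. Il10 was also not called with quantile normalization or without Control 1, IRI 1, IRI 3 or IRI 4. With normexp 9 of the 21 rose, and without the 3 arrays with fat transcripts 10 of 18 did.

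The NF-kappaB pathway and its feedback rose in 15 of 21 tested cases, beside 17.1% of all genes, with a median of 1.76. The same number rose with normexp. Among its subunits Relb rose by 2.51 ± 0.18 and Rela by 1.84. Bcl3, a nuclear partner of the p50 and p52 subunits, rose by 2.68 ± 0.25, and the inhibitor Nfkbia by 1.85 ± 0.20 (adjusted p = 9.26e-07). Socs3, which blocks signals of the Il6 receptor, was at -0.24, -1.12, -1.26 and -0.86 in Control and at 3.72, 4.65, 3.84 and 4.03 in IRI. It rose 30.5-fold (adjusted p = 1.22e-09), while Socs1 (0.64), Socs2 (0.74) and Cish (-1.02) did not pass. Socs1 passed without IRI 3 or IRI 4, Socs2 without Control 1, and Cish without Control 2, Control 4 or IRI 2.

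The promoter of Cxcl1 is shown because, by the log2 change as computed, whose size is uncertain, it led the members of the cytokine list whose promoter held the NF-kappaB motif searched, GGANTTTCC on either strand. It comes from the RefSeq table for GRCm38.p6, from 250 bases before to 50 after the start of the gene, plus strand, with the motif in capitals at -70 to -62 from the start. The letters occurred in 333 of 27025 promoters (1.23%), and a match is a description and not a measured binding site.
Cxcl1 promoter, chr5:90890995-90891294: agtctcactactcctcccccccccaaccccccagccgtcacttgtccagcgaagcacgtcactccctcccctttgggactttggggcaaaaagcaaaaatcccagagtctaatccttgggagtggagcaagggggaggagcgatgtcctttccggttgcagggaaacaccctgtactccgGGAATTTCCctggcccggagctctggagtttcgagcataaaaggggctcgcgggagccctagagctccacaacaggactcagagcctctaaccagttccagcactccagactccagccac

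Markers of leukocytes were examined beside these genes. Of 13 neutrophil markers on the array 4 were measured well enough to be tested, and S100a8 and S100a9, which form the granulocyte protein calprotectin, and Retnlg rose. S100a8 and Retnlg were tested through the IRI arrays alone, with 2 and 0 Control arrays well above background. This count, beside 17.1% of all genes, thus partly follows from the filter. S100a9 was at -2.66, -1.32, -1.25 and -1.66 in Control and at 2.33, 2.71, 1.76 and 1.04 in IRI, a rise of 12.8-fold (adjusted p = 1.86e-05). Retnlg was at least 9.61-fold higher (adjusted p = 2.06e-06), with a log2 change of 0.91 with normexp, and S100a8 rose by 4.05, or 1.57 with normexp. The fourth, Mpo, the myeloperoxidase made in the marrow, fell by 0.74, though not with normexp, with quantile normalization or without the 3 arrays with fat transcripts. The summed level of the neutrophil markers was -0.97 to -0.35 in Control and 1.48 to 3.14 in IRI (exact p = 0.029). Their part in the rises of the cytokines was not tested.

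Of the macrophage and monocyte markers 4 of 14 rose and 1 fell, with a median of 0.30, beside 17.1% and 33.9% of all genes. Their summed level was 3.36 to 3.67 in Control and 3.98 to 4.25 in IRI, without overlap (exact p = 0.029). Cd14, a receptor for bacterial lipopolysaccharide that tubular cells can also express, rose 7.25-fold, and Cd68, a lysosomal protein of phagocytes, 4.68-fold (2.23 as a log2 change, 1.18 with normexp). Csf1r (0.30), the receptor of Csf1, and Emr1 (-0.86), which encodes F4/80, did not pass. Cx3cr1, the receptor for fractalkine on resident cells, was at -2.94, -3.50, -4.31 and -3.68 in Control and not well above background on any IRI array. That is at least 2.99-fold lower (adjusted p = 7.77e-06), a call that normexp did not make (adjusted p = 0.99). The summed level of the lymphocyte markers was 0.03 to 0.16 in Control and -0.72 to -0.34 in IRI (exact p = 0.029). Lymphocyte markers fell in 6 of 11 cases, all among the 5907 genes with the lowest level and 2 of them, Cd79a and Cd3g, tested through the Control arrays alone, and 4 of 11 fell without the 3 arrays with fat transcripts. The 6 were not called with normexp, where Cd4 and Cd79a turned to 0.08 and 0.07. Cd79a was also not called with quantile normalization, without the 3 arrays with fat transcripts or without any of 6 arrays taken out in turn, Control 1, 2 and 3 and IRI 2, 3 and 4. Hemoglobin transcripts such as Hba-a1 (0.70) and Hbb-b1 (0.67) did not pass.

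Markers of tubular injury rose in 18 of 25 cases, beside 17.1% of all genes, with a median of 1.94. The same 18 genes were called with normexp and with quantile normalization. Krt20 and Sprr2f were tested through the IRI arrays alone, and among the 23 genes that passed the filter in Control 16 rose. Krt20, a keratin of lining epithelia that healthy tubules hardly express, was at -5.87, -1.32, -5.31 and -6.17 in Control, well above background on 1 of 4 arrays, and at 5.46, 5.58, 5.78 and 5.50 in IRI. Its probe lies at chr11:99289776-99289835 in mm9, and its change was 10.24 ± 0.81 (adjusted p = 3.08e-08), or 6.77 with normexp. Since 3 of the Control values were not well above background, the size of this change is uncertain. Krt8, the basic keratin of simple epithelia, was at 3.96, 3.82, 3.70 and 3.73 and at 6.45, 6.77, 6.61 and 6.52. It rose 6.89-fold (adjusted p = 1.38e-11), with an SD of 0.12 in Control and 0.14 in IRI.

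Lcn2, the iron-binding lipocalin NGAL used as a marker of kidney injury in urine, was at -2.79, -3.60, -4.29 and -3.93 in Control and at 1.29, 1.94, 0.63 and 1.77 in IRI, a rise of 33.3-fold (adjusted p = 8.14e-08), with a log2 change of 5.06, or 2.89 with normexp. Sox9, a factor of regenerating tubules, rose by 5.26 ± 0.34 (2.37 with normexp) over probes with changes between 0.49 and 6.08. Tnfrsf12a, the receptor of TWEAK, rose 23.6-fold, and Akap12, a scaffold of protein kinase A, 14.2-fold. Havcr1, the injury marker KIM-1, was at 0.66, 0.51, 0.50 and 0.53 in Control and at 1.26, 1.12, 1.49 and 1.51 in IRI. The arrays did not overlap, but its mean over probes missed the threshold (0.79 ± 0.33, adjusted p = 0.0503), and its probes gave changes of 0.63 and 2.27. As a mean of log2 values over these probes, or when fitted on the 8 arrays alone, it passed. The secreted markers Clu (0.59) and Spp1 (0.68) rose little.

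The ErbB receptors and their ligands, which include the EGF family of repair signals, rose in 6 of 12 cases and fell in 3, beside 17.1% and 33.9% of all genes. Of these, 1 rise was tested through the IRI arrays alone and 1 fall through the Control arrays alone, so that the counts partly follow from the filter. Hbegf, a membrane-bound ligand of the EGF receptor, rose 8.65-fold, from a range of 0.59 to 1.95 to one of 3.15 to 5.12. Nrg1 rose 7.38-fold, and Areg, measured in IRI alone, was at least 3.72-fold higher, a call that normexp did not make (adjusted p = 0.086). The receptor Egfr rose by 0.69, over probes with changes between -0.39 and 1.47, whereas Erbb2 fell by 0.82 ± 0.14 (adjusted p = 8.44e-05). Egf itself, made by the distal tubule, was at 7.10, 6.85, 7.13 and 6.92 in Control and at 7.0, 7.17, 7.04 and 6.70 in IRI, with a change of -0.02 ± 0.12. The ligands Ereg (-0.82) and Epgn (-1.06) also fell, but neither was called with normexp, with quantile normalization or without the 3 arrays with fat transcripts. Ereg was also not called without Control 1, and Epgn not without Control 2 or IRI 4. With normexp 4 of the 12 rose and 1 fell, and without the 3 arrays with fat transcripts 5 and 1.

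The unfolded protein and integrated stress responses rose in 14 of 23 cases and fell in 1, beside 17.1% and 33.9% of all genes. Their median was 1.13. The transcription factors of the pathway were higher, Atf4 by 2.40 ± 0.22, Ddit3, which encodes CHOP, by 2.12 ± 0.38, and Xbp1 by 1.19 ± 0.23. Chac1, a target of both factors that degrades glutathione, was at -1.84, -2.29, -2.49 and -1.93 in Control and at 2.60, 3.66, 3.48 and 3.15 in IRI, a rise of 41.0-fold (adjusted p = 8.30e-10). Trib3 rose by 3.70 on the log2 scale (2.24 with normexp) and Asns, the asparagine synthetase, 5.37-fold. Hspa5, the chaperone BiP of the endoplasmic reticulum, rose by 1.17 ± 0.21, while the chaperones Hsp90b1 (-0.15), Calr (-0.12) and Pdia4 (0.03) did not pass and Sdf2l1 fell by 0.99, though not without the 3 arrays with fat transcripts. Chac1, Trib3, Myd116, which encodes the phosphatase subunit GADD34, Asns and Atf4 had the largest rises of the list, in that order.

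The promoter of Chac1 is shown as the one with the largest change among the members of that list that held the amino acid response element TGATGNAA on either strand, to which ATF4 is known to bind. It was taken from the same table, plus strand, with the motif, read here on the opposite strand, in capitals at -193 to -186. Of the 21 members with a promoter 4 held the letters, against 4.06% of all promoters, and such a match says nothing about binding.
Chac1 promoter, chr2:119350992-119351291: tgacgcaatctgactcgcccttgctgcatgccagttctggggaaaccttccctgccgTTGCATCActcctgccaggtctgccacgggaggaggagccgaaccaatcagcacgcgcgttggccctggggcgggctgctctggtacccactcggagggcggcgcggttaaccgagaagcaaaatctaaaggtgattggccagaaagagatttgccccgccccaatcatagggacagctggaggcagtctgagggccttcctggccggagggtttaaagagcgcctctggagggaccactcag

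Targets of NRF2, a transcription factor of the response to oxidants and electrophiles, rose in 8 of 21 cases, with a median of 0.14, beside 17.1% of all genes. Hmox1, the heme oxygenase, was at 0.96, 2.14, 1.18 and 1.18 in Control and at 5.69, 5.63, 6.14 and 6.67 in IRI, a rise of 25.4-fold (adjusted p = 4.21e-07). Srxn1, which reduces overoxidized peroxiredoxins, was at 1.56, 2.03, 1.60 and 1.77 and at 4.83, 5.11, 5.22 and 4.89, a rise of 9.65-fold (adjusted p = 3.55e-10). Txnrd1, the thioredoxin reductase, rose 3.11-fold. Other textbook targets changed little, with Nqo1 at 0.65 ± 0.21, not called without the 3 arrays with fat transcripts, and Gclm at 0.19 ± 0.19, not past the threshold. The promoter of Srxn1 is shown as the called member with the largest change that held the core of the antioxidant response element, TGACNNNGC on either strand, here on the opposite strand and in capitals at 29 to 37 bases after the start. These letters occurred in 9 of the 17 listed promoters and in 12.5% of all.
Srxn1 promoter, chr2:152105274-152105573, plus strand: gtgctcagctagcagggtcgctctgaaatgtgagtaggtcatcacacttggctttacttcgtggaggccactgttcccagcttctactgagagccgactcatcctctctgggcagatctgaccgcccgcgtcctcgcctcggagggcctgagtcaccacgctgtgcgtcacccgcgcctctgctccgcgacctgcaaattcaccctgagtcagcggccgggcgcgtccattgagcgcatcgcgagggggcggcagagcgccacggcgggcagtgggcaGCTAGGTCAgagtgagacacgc

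Of 20 genes listed with the heat shock proteins 7 rose and 4 fell, with a median of 0.11, beside 17.1% and 33.9% of all genes. Hspb1, a small chaperone that stabilizes actin, was at 0.81, 1.22, 0.34 and 0.58 in Control and at 3.1, 3.27, 3.23 and 3.73 in IRI, a rise of 6.06-fold (adjusted p = 1.17e-06). Bag3, a co-chaperone in the removal of damaged proteins, rose 3.42-fold and Hspa1b, the inducible Hsp70, 2.15-fold, a rise that was not called without IRI 4. The constitutive Hspa8 (-0.17) and Hsp90ab1 (0.06) and the co-chaperone Dnajb1 (0.12) did not pass. Chordc1 fell by 0.64 ± 0.15, though not without the 3 arrays with fat transcripts. Without these arrays 9 rose and 1 fell. The promoter of Hspb1 is shown because it held the heat shock element GAANNTTC, found in 7.95% of all promoters, at 2 places, -117 to -110 and -97 to -90.
Hspb1 promoter, chr5:135887669-135887968, plus strand: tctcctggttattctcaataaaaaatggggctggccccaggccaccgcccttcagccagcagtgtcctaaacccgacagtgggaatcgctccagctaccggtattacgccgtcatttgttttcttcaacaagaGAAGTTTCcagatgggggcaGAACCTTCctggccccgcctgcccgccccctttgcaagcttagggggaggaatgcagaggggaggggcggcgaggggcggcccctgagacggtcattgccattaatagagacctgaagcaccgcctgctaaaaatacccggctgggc

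Targets of p53 rose in 12 of 20 cases and fell in 4, with a median of 0.63, beside 17.1% and 33.9% of all genes, and without the 3 arrays with fat transcripts 12 rose and 2 fell. Cdkn1a, the inhibitor p21 that halts the cell cycle, was at -2.86, -0.89, -2.32 and -1.43 in Control and at 3.17, 3.38, 3.25 and 3.55 in IRI, a rise of 37.1-fold (adjusted p = 4.84e-10). Plk3, a stress kinase, rose by 4.00 on the log2 scale, Gadd45a, a sensor of DNA damage and stress, 5.97-fold, and Mdm2, the ligase that degrades p53, 2.50-fold. Trp53 itself fell by 0.42 and Bax by 0.56, neither of which was called with normexp. Trp53 was also not called without Control 1, Control 3, IRI 2 or IRI 4, and Bax not without IRI 1 or the 3 arrays with fat transcripts, while Ccng1 (0.05) and Phlda3 (0.05) did not pass. Genes of cell division did not rise as a group, with 2 of 18 higher and 4 lower, both below the shares of all genes. Cdt1, which licenses replication origins, rose by 1.13 ± 0.16, and Ccna2, the cyclin of S phase, fell by 1.31 ± 0.39, though not with normexp or without the 3 arrays with fat transcripts. Ccnd1, the cyclin of the G1 phase, fell by 0.54 ± 0.21 (adjusted p = 0.039), a call that was lost with normexp, without the 3 arrays with fat transcripts and without any of 6 arrays taken out in turn, Control 1, 2 and 3 and IRI 1, 2 and 3. The 4 falls were reduced to 1 with normexp and were no longer called without the 3 arrays with fat transcripts, and the proliferation marker Mki67 (-0.79) did not pass.

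Genes for building ribosomes rose in 13 of 24 cases, with a median of 0.42, beside 17.1% of all genes. Gnl3, the nucleostemin of the nucleolus, rose by 1.51 ± 0.35, Nol5a, now called Nop56, by 0.99 ± 0.16, and Ncl, the nucleolin, by 0.57 ± 0.18, the last not with normexp and over probes with changes between -0.43 and 0.63. Aminoacyl-tRNA synthetase genes rose in 8 of 17 cases. The ribosomal proteins themselves were called higher in 4 of 75 and lower in 2 cases, with a median of 0.07. With normexp 0 were higher and 0 lower, and with quantile normalization 1 was higher and 3 lower, but without the 3 arrays with fat transcripts 32 were higher. Of 37 proteasome subunit genes 7 rose with all arrays, 2 with normexp, 4 with quantile normalization and 16 without these 3 arrays.

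Among targets of hypoxia and genes of glycolysis 10 of 24 rose and 2 fell, with a median of 0.13, beside 17.1% and 33.9% of all genes, and without the 3 arrays with fat transcripts 9 rose and 1 fell. Hk2, the inducible hexokinase, was at -2.55, -0.20, -4.70 and -4.42 in Control and at 0.82, -0.28, -0.67 and 0.64 in IRI. Its Control 2 value lay above the lowest IRI values, and its change was 3.09 ± 0.77 (adjusted p = 2.75e-03), or 1.59 with normexp. Adm, the vasodilator adrenomedullin, rose 3.99-fold, Slc2a1, the glucose carrier GLUT1, 2.53-fold, and Pfkfb3, which drives glycolysis, 2.50-fold. The bulk enzymes of glycolysis did not pass, with Ldha at 0.00, Pgk1 at 0.05 and Gapdh at 0.19. Vegfa, a classic target of hypoxia, was at 2.54, 2.48, 2.62 and 2.56 in Control and at 1.89, 2.25, 1.97 and 2.01 in IRI, and fell by 0.52 ± 0.15 (adjusted p = 6.94e-03), though not without the 3 arrays with fat transcripts.

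Fatty acid oxidation, the main fuel of the proximal tubule, held 1 large change. Pdk4, the kinase that keeps pyruvate out of the citric acid cycle, was at 1.70, 2.27, 0.60 and 1.03 in Control and at 5.48, 5.34, 5.61 and 5.18 in IRI, a rise of 4.00 on the log2 scale (adjusted p = 2.68e-08). Cpt1a, which admits fatty acids to mitochondria, rose by 0.53, though not with normexp, with quantile normalization or without the 3 arrays with fat transcripts, and Ppargc1a, the coactivator PGC-1alpha of mitochondrial genes, fell by 0.86 ± 0.19. Acadm, a dehydrogenase of the pathway, was at 6.43 to 6.89 and at 6.40 to 6.50, and did not pass (-0.22), and neither did Ppara (0.46 ± 0.23), the nuclear receptor of the pathway, unless IRI 4 was left out. Fabp1, a fatty acid carrier with a weak signal here, fell by 1.24 ± 0.37, though not with normexp, with quantile normalization or without the 3 arrays with fat transcripts. In all, 2 of 24 genes rose and 4 fell, with a median of 0.08, both shares below the 17.1% and 33.9% of all genes, and without the 3 arrays with fat transcripts 4 rose and 2 fell. Respiratory chain and ATP synthase genes were called lower in 3 of 77 cases with a median of -0.12, in 27 with quantile normalization, and in 1, with 2 higher, without the 3 arrays with fat transcripts.

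Gluconeogenesis and amino acid metabolism held 3 falls among 24 genes, a smaller share than the 33.9% of all genes. Gatm, which makes the precursor of creatine, was at 5.09, 4.85, 5.38 and 5.38 in Control and at 3.53, 3.88, 3.78 and 3.19 in IRI, and fell by 1.58 ± 0.22 (adjusted p = 1.87e-05). Ddc, which makes dopamine in the proximal tubule, fell by 1.30 ± 0.18. Kynu, of the kynurenine pathway, also fell (-1.75), but its probes gave -1.90 and 0.03, and it was not called with normexp (adjusted p = 0.73). Of 25 genes of drug and steroid metabolism 1 rose, Aldh1a1 (1.32 ± 0.26), and 3 fell, again below the shares of all genes. They were Keg1 (-1.12 ± 0.23), Sult1c2 (-0.61) and Cyp27b1, which activates vitamin D (-1.44 ± 0.44, not called with normexp). With quantile normalization 1 of the 25 rose and 7 fell. Without the 3 arrays with fat transcripts 3 of the 25 rose and 2 fell, and neither Sult1c2 nor Cyp27b1 was called. The abundant enzymes Cyp4b1 (0.18 ± 0.15) and Cyp2e1 (0.43 ± 0.26) did not pass.

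Transporters and endocytic receptors of the proximal tubule fell in 13 of 32 cases, with a median of -0.28, beside 33.9% of all genes, and 12 fell with normexp. Slc5a12, the sodium-coupled carrier of lactate, was at 2.00, 1.74, 2.02 and 2.00 in Control and at 0.07, 0.52, 0.59 and -0.08 in IRI, a fall of 1.67 ± 0.22 (adjusted p = 9.60e-06). Lrp2, the endocytic receptor megalin, was at 5.40, 5.57, 5.44 and 5.47 and at 4.68, 4.47, 4.54 and 4.39, a fall of 0.95 ± 0.10 (adjusted p = 7.35e-07), and its partner Cubn fell by 0.54 ± 0.16. Slc34a3 fell by 0.91 ± 0.23 while Slc34a1, the main phosphate carrier, had a change of -0.05 ± 0.14 and did not pass. Slc7a8, an exporter of neutral amino acids, fell by 1.07 ± 0.25. The glucose carriers Slc5a2 (-0.41) and Slc5a1 (-0.34), the water channel Aqp1 (-0.32) and the organic anion carriers Slc22a6 (0.05) and Slc22a8 (-0.08) did not pass, though Slc5a1 passed without IRI 4. Without the 3 arrays with fat transcripts 7 of the 32 fell, and Cubn, Slc34a3 and Slc7a8 were no longer called.

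In the thick limb and distal tubule 7 of 22 genes fell and 2 rose, with a median of -0.28, beside 33.9% and 17.1% of all genes, and without the 3 arrays with fat transcripts 4 fell and 1 rose. Kcnj1, the potassium channel ROMK, was at 5.30, 6.02, 5.31 and 5.41 in Control and at 4.17, 4.11, 3.76 and 3.48 in IRI, a fall of 1.63 ± 0.28 (adjusted p = 1.05e-04). Bsnd, the barttin subunit of chloride channels, fell by 1.77 ± 0.21 (with normexp -0.84), and both also fell with normexp. The cotransporters Slc12a1 (0.15) and Slc12a3 (0.48) and Umod (-0.01 ± 0.16) did not pass, though Slc12a3 passed without Control 2. Trpm6, the magnesium channel of the distal tubule, rose by 0.56 ± 0.15, though not with normexp.

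In the collecting duct 7 of 21 genes fell and 2 rose, again a share of falls near the 33.9% of all genes. With normexp 3 fell and 1 rose. Avpr2, the vasopressin receptor, was at 1.09, 1.01, 0.72 and 0.81 in Control and at -0.76, -0.74, -0.78 and -0.82 in IRI, a fall of 1.68 ± 0.28 (adjusted p = 7.66e-05). Aqp2, the water channel that this receptor controls, moved the other way, from 3.15, 2.80, 3.34 and 2.97 to 4.28, 4.25, 3.87 and 4.80, a rise of 2.35-fold (adjusted p = 2.52e-03). Rhcg, the ammonia channel of intercalated cells, fell by 0.94 ± 0.27, and the sodium channel subunit Scnn1a rose by 0.50 ± 0.15, though not with normexp. Without the 3 arrays with fat transcripts 3 genes fell and 1 rose, and neither Aqp2 nor Rhcg was called.

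Podocyte genes fell in 6 of 15 cases and rose in 1, a share of falls near the 33.9% of all genes, and without the 3 arrays with fat transcripts 4 fell. Ptpro, a receptor phosphatase of the podocyte surface, fell by 0.90 ± 0.16 (adjusted p = 1.84e-04; with normexp -0.54), whereas Nphs1, the nephrin of the slit diaphragm, did not pass (-0.15 ± 0.14). Cd2ap, which links nephrin to actin, rose by 0.67 ± 0.10, though not with normexp (adjusted p = 0.055).

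Of 21 endothelial genes 5 rose and 5 fell, with a median of 0.09, beside 17.1% and 33.9% of all genes. Nos3, the endothelial nitric oxide synthase, was at -1.78, -1.43, -1.63 and -1.47 in Control and at 0.24, -0.15, 0.52 and 1.10 in IRI, a rise of 4.02-fold (adjusted p = 6.03e-07). Cdh5, the cadherin of endothelial junctions, rose 2.63-fold and Sox7 2.96-fold (1.57 as a log2 change, 0.66 with normexp). Ehd3, known from glomerular endothelium, fell by 1.21 ± 0.16, and the receptors Aplnr (-2.02), Tek (-0.97) and Kdr (-0.44) also fell, but these 3 were not called with normexp, and Kdr was not called without the 3 arrays with fat transcripts, or without Control 2, 3 or 4 or IRI 2 or 4. The adhesion molecule Pecam1 (0.63) did not pass.

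Renal transcription factors fell in 12 of 24 cases and rose in 3, with a median of -0.45, beside the same shares of all genes, 33.9% and 17.1%. Maf, a factor of the proximal tubule, was at 2.39, 2.38, 2.33 and 2.64 in Control and at 1.19, 0.56, 0.81 and 0.05 in IRI, a fall of 1.79 ± 0.20 (adjusted p = 1.46e-06). The developmental factors Osr1 (-1.55 ± 0.18) and Emx1 (-1.21 ± 0.23) fell, the former not with normexp (adjusted p = 0.78), and Esrra, a receptor that works with PGC-1alpha, fell by 0.84 ± 0.16. Pax8 rose by 1.16 ± 0.24 (0.74 with normexp), with probes between -0.47 and 1.19. Hnf4a (-0.10 ± 0.20), which keeps the tubular programme, did not pass. With normexp 7 fell and 3 rose.

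Of 19 genes of vasoactive systems 5 rose and 6 fell, a share of falls near the 33.9% of all genes. With normexp 5 rose and 2 fell. Both receptors of type 1 for angiotensin II fell. Agtr1a was at 0.90, 1.30, 1.14 and 1.29 in Control and at 0.07, 0.12, 0.26 and 0.07 in IRI, a fall of 1.03 ± 0.12 (adjusted p = 1.67e-06), and Agtr1b fell by 3.07 ± 0.42 (adjusted p = 1.37e-05), its change being -0.87 with normexp, with IRI 4 at -6.26 and the other IRI arrays between -3.86 and -3.55. Edn1, the vasoconstrictor endothelin, rose 4.56-fold (adjusted p = 4.29e-06), with a log2 change of 2.19, or 0.93 with normexp. Ptgs2, the inducible cyclooxygenase, was not well above background on any Control array and was at least 6.58-fold higher, with a log2 change of 0.85 with normexp. Npr3, the clearance receptor of natriuretic peptides, fell by 1.25 ± 0.23, though not with normexp. Ren1 (-0.15), Agt (-0.13) and Ace (0.32) did not pass.

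Clock genes were called in 8 of 17 cases, 7 higher and 1 lower, beside 17.1% and 33.9% of all genes. With normexp 4 were higher and 0 lower. Of the 7 rises that of Cry1 was tested through the IRI arrays alone, and the 1 fall through the Control arrays alone. The Control arrays also differed among themselves. Dbp, an output gene of the clock with a steep daily rhythm, was at 5.86, 2.74, 5.52 and 2.98 in Control 1 to 4, and at 2.90, 4.71, 3.58 and 2.92 in IRI. Arntl, whose rhythm runs opposite to it, was at -3.03, 0.28, -3.38 and 0.55 in Control and at 0.65, -0.32, 0.45 and 0.70 in IRI. Control 1 and 3 were thus high in Dbp and low in Arntl, Control 2 and 4 the reverse, and Tef, at 2.01, 0.79, 2.04 and 0.79, and Gm129, now Ciart, at -0.48, -5.80, -0.33 and -5.29, divided the Control arrays the same way. The times at which tissue was taken are not given in the sources used here, and their part in these values was not tested.

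Dbp (-0.74 ± 0.57) and Nr1d1 (-0.89 ± 0.44) did not pass, and Arntl passed narrowly (adjusted p = 0.046) and was not called with normexp, without the 3 arrays with fat transcripts or without any of Control 1 and 3 and IRI 1, 3 and 4 taken out in turn. Nr1d1 passed without Control 2 or IRI 2. Cry1 and Cry2, the repressors of the clock, rose by 2.91 ± 0.33 and 1.51 ± 0.28, the former from Control values of which 1 of 4 was well above background (0.89 with normexp, and 0.99 for Cry2), and Per1, which stress hormones and immediate early signals also induce, by 1.31 ± 0.41, though not without Control 4 or without the 3 arrays with fat transcripts. Per3 fell by 1.79 ± 0.35, though not with normexp (adjusted p = 0.71). It was tested through the Control arrays alone, with 2 of 4 IRI arrays well above background, so that the size of its fall is uncertain. Without the 3 arrays with fat transcripts 3 of 16 rose.

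Outside the lists, the largest rises among genes well above background on all 8 arrays with groups apart included Ch25h, the cholesterol 25-hydroxylase, at -2.01, -3.08, -3.43 and -2.54 in Control and 2.23, 2.39, 2.73 and 2.79 in IRI, a rise of 39.4-fold (adjusted p = 2.80e-09). The largest falls under the same rule were Crocc, the rootletin of cilia, at 2.14, 2.79, 2.02 and 2.19 in Control and at -1.37, -0.16, -1.33 and -1.19 in IRI, a fall of 3.30 ± 0.53 (adjusted p = 6.09e-05), followed by D630023F18Rik (-3.02 ± 0.28), D630039A03Rik (-2.91 ± 0.30), Tlx2 (-2.75 ± 0.24) and 9530096D07Rik, now Rab42 (-2.59 ± 0.29). Emid2, Kcns2, V1re6, Zfp101 and Clic6 fell by 2.38 to 2.50. With normexp Crocc (-2.57) and D630039A03Rik (-2.30) kept most of their fall. Tlx2 was reduced to -1.76, D630023F18Rik to -1.14, Emid2 to -1.03, Zfp101 to -1.02, V1re6 to -0.97 and 9530096D07Rik to -0.91, and Kcns2 (-0.61) and Clic6 (-0.56) were not called. The probes of Kcns2 disagreed, with changes of -2.61 and -0.01.

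Gene families are described by their counts. Of 909 olfactory receptor genes on the array, 299 passed the filter and were tested. Of these, 214 fell and 7 rose, beside 33.9% and 17.1% of all genes, with a median of -1.09. With normexp 9 of the 299 fell, with a median of 0.02, and without the 3 arrays with fat transcripts 118 of 255 fell. A gene could pass the filter through the Control arrays alone, and such genes were not counted for this family. The number of falls may therefore partly follow from the filter. With no filter on dim genes, 0 lists or families had most members lower. Zinc finger protein genes named Zfp fell in 109 of 238 cases (45.8%) and rose in 34 (14.3%), beside 33.9% and 17.1% of all genes. With normexp 24 fell and 15 rose. Replication-dependent histone genes fell in 8 of 23 cases and rose in 3, a share of falls near that of all genes, against 2 and 3 with normexp and 2 and 4 of 22 without the 3 arrays with fat transcripts.

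**Figure D4:**
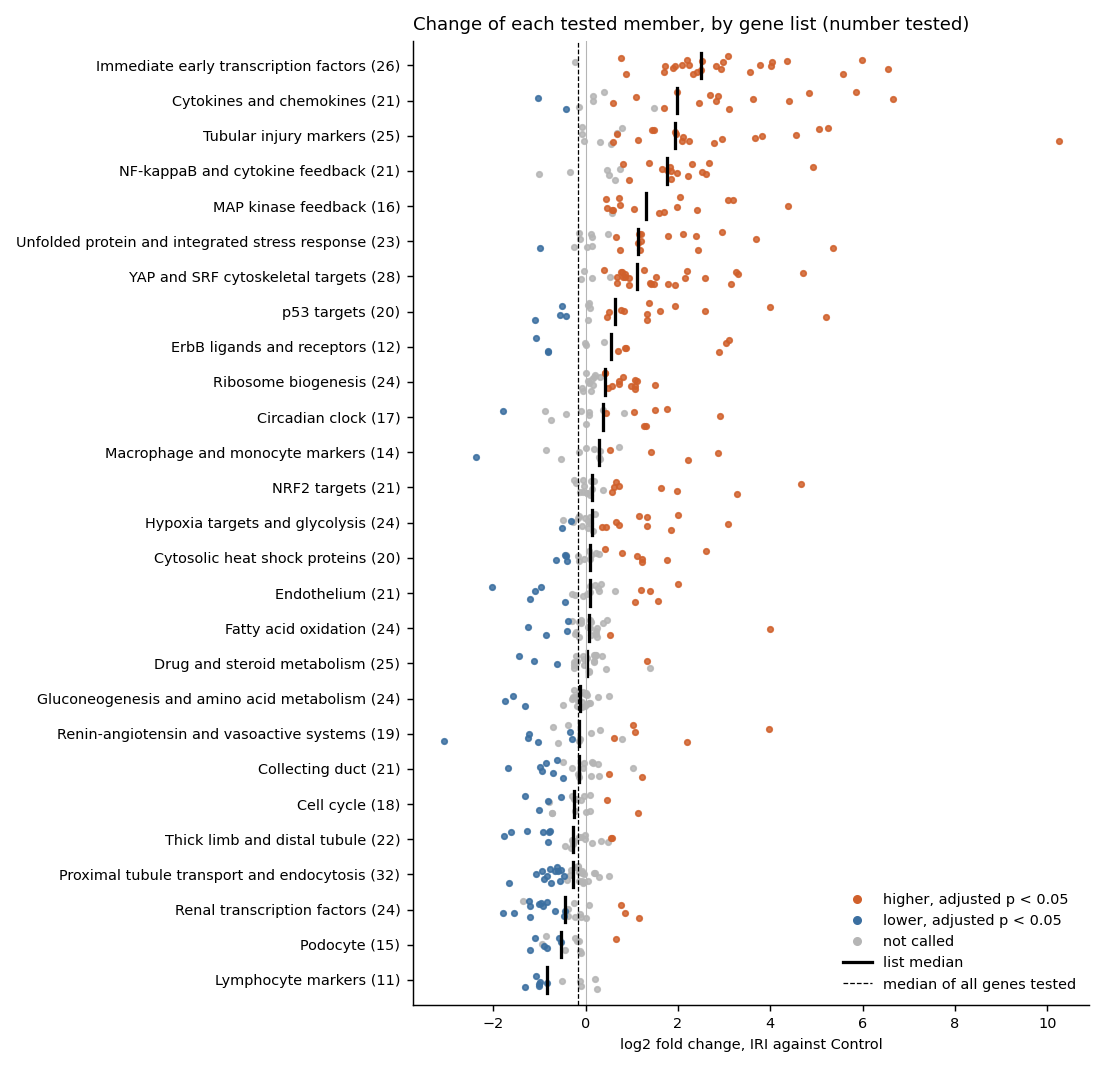
Log2 fold change of IRI against Control (horizontal axis) of each tested member of the gene lists with at least 10 tested members, families taken by gene name left out (vertical axis, number tested in brackets), orange where higher, blue where lower and grey where not called, with a bar at each list's median and a dashed line at the median of all genes, -0.17. With this processing the medians of immediate early factors, cytokines and injury markers lie furthest to the right and that of lymphocyte markers furthest to the left, but with normexp the medians of cytokines and lymphocyte markers were 0.73 and 0.08.

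Over the 38 lists and families, more than 50% of the tested members rose in 10, and more than 50% fell in 3, beside 17.1% and 33.9% of all genes. The 10 were the neutrophil markers and the lists of immediate early factors, MAP kinase feedback, YAP and SRF targets, injury markers, NF-kappaB, cytokines, stress responses, p53 targets and ribosome biogenesis. The 3 were the olfactory receptors, the lymphocyte markers and the adrenal markers. For the olfactory receptors the number of falls may partly follow from the filter, as given above. The adrenal markers rest on 3 tested genes, of which Star, tested through the IRI arrays alone, rose (0.89) and Hsd3b1 (-1.45) and Mc2r (-1.23) fell, and none of the 3 was called with normexp. Their summed level was -0.08 to 0.14 in Control and -1.21 to -0.96 in IRI (exact p = 0.029). The neutrophil markers rest on 4 tested genes. Of their rises 2 were tested through the IRI arrays alone, as were 6 of the cytokines and 2 of the injury markers. The immediate early factors and MAP kinase feedback each held 1 such rise.

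Ischemia and reperfusion was also performed on mice given Hemin, an inducer of heme oxygenase 1, at 25 mg/kg 24 h before surgery, and compared with mice given Hemin alone, 4 arrays in each group. These arrays are other than the 8 above, though all share 1 estimate of the spread, and the slides were scanned on other days. The IRI+Hemin slide and the Hemin slide were scanned on different days, so that scan day and group cannot be told apart within this comparison or in the difference of effects. Of 18634 genes tested, 3068 rose (16.5%) and 5199 fell (27.9%). Over 17289 genes tested in both comparisons the changes had a Pearson r of 0.73 and a Spearman rho of 0.67, a description across genes, which are no independent replicates and share the same probes and signal levels. Of the genes that rose in IRI 1970 also rose under Hemin, 65.8% of that list and 67.7% of the other, and 26 fell. Of those that fell 3261 also fell, 57.0% and 66.8%, and 168 rose. Of the rises of at least 2-fold, 872 of 1030 were again called higher, and of the falls of at least 2-fold 1354 of 2285 were again called lower.

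The leading genes are set side by side. Krt20 rose by 8.83 under Hemin beside 10.24 without it, the latter of uncertain size as given above, Atf3 by 5.93 beside 5.57, Maff by 5.44 beside 5.98, Chac1 by 5.41 beside 5.36, Hmox1 by 3.87 beside 4.67 and Lcn2 by 4.00 beside 5.06, and for these 6 the test of the difference did not pass (adjusted p = 0.33 to 0.97), which does not show that the effects were equal. All 26 immediate early factors tested rose under Hemin, Klf2 included (0.92), though its difference of -1.15 did not pass (adjusted p = 0.070). Among the falls Gatm (-1.73), Avpr2 (-1.59), Bsnd (-1.56), Kcnj1 (-1.36) and Crocc (-3.13) also fell under Hemin.

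**Figure D5:**
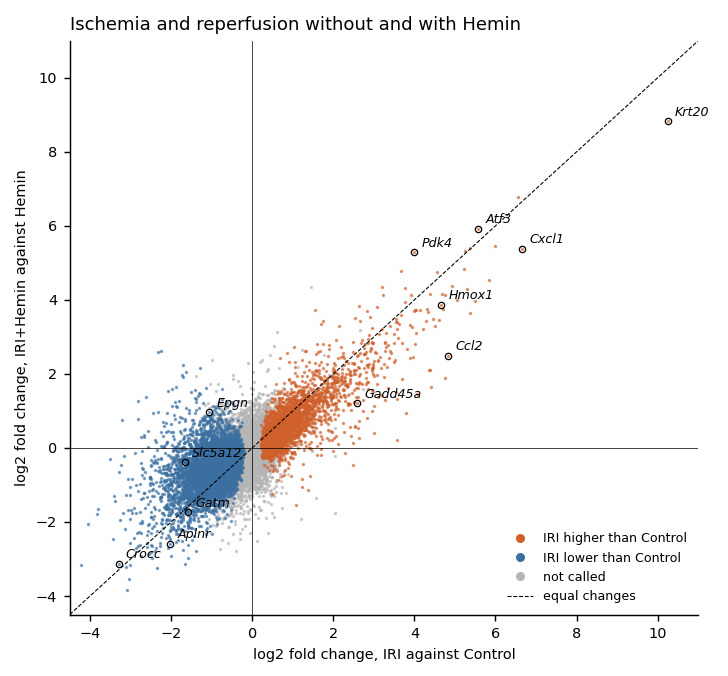
Log2 fold change of IRI+Hemin against Hemin (vertical axis) against that of IRI against Control (horizontal axis), 1 point per gene tested in both, orange where IRI was higher than Control, blue where lower and grey where not called, with a dashed line of equal changes and circles at named genes. Most called genes lie in the same direction on both axes, while Ccl2, Gadd45a and Slc5a12 lie off the line.

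The difference between both effects was called for 1486 of 19064 genes, more positive without Hemin for 373 (1.96%) and more negative for 1113 (5.84%). With normexp 146 genes were called. Ccl2 rose by 4.83 without and by 2.49 with Hemin (difference 2.34, adjusted p = 0.032), Csf1 by 2.86 and 1.79 (difference 1.06, adjusted p = 0.036) and Gadd45a by 2.58 and 1.20 (difference 1.38, adjusted p = 0.029). These differences were in the same direction with normexp but were not called there, with adjusted p of 0.15, 0.12 and 0.10. Called under both settings were Ppargc1a, Maf and Ddc. Ppargc1a fell by 0.86 without Hemin and rose by 0.64 with it (difference -1.51, adjusted p = 2.34e-03), Maf fell by 1.79 and by 0.61 (difference -1.18, adjusted p = 0.016), and Ddc fell by 1.30 and had a change of 0.22 (difference -1.52, adjusted p = 1.47e-03). Fatty acid oxidation genes were called higher in 10 of 24 cases under Hemin and in 2 without, beside 16.5% and 17.1% of all genes, and the difference itself was called for 3 of the 24, each more negative without Hemin. Of the 18 cell cycle genes tested in both comparisons, 11 fell under Hemin and 4 without, beside 27.9% and 33.9% of all genes. The difference was called for 3 of the 21 tested for it, more positive without Hemin for 2 and more negative for 1.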

How the data were processed

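Agilent Feature Extraction 9.5.3.1 measured the Cy3 fluorescence. Per the file headers, the deposited processed signal is an intensity from which background was subtracted and a spatial trend removed within each array. The deposited matrix holds the same signal on a log2 scale with 18.1% of the values left blank, and every other value of a probe with a single spot lay within 0.001 of the log2 signal. The scale is therefore known, and no centring had been applied.

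Of 43379 non-control spots, 53 to 165 outlier spots an array were left out. Spots were averaged to 41174 probes, the signals of an array were scaled to its 75th percentile, and probes sharing a gene name were averaged (27827 names) before log2 was taken. The number of arrays limits the precision. A gene was tested where at most 1 of the 8 arrays had no value and at least 3 of 4 arrays of 1 group were well above background. limma 3.58.1 in R 4.3.3 (lmFit, eBayes) was fitted on all 20 arrays as 5 group means with 15 residual degrees of freedom, and Benjamini-Hochberg adjustment ran over all genes tested. The study used SAM, and limma took its place. "At least" folds set the mean of the bright group against the lowest signal well above background on each array of the dim group, or the gene's own signal where higher, and fold changes elsewhere are 2 to the power of the log2 change.

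The samples were grouped by their titles. The members and the gene lists were chosen with earlier results of these data known. The rule for naming genes took the first 2 genes of each list, the largest rise and fall of each list among genes well above background on all 8 arrays with groups apart, and the 10 largest rises and falls over all genes under the same conditions with a RefSeq accession. Other genes were named after their values had been seen. The fit was tested on simulated data. Alternatives were normexp with an offset of 50, quantile or no normalization, another percentile, the deposited matrix, other rules for probes and for the filter, the 8 arrays alone, a replicate block, the methods' t-test and leaving out arrays. Promoters came from a RefSeq table for GRCm38.p6 that held 10882 of 13653 tested genes (79.7%) with a curated accession, too few to compare motif shares between called sets. Annotated positions are in mm9. Figures were drawn with matplotlib 3.10.9. Some genes of the lists are not reported here, and the 4 IPC+IRI arrays entered through the shared spread alone.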

Additional observations from a re-analysis of the deposited data

Results flagged for a closer look

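In 29 of 410 groups of 4 arrays examined for the genes named in the text, 1 array stood so far from the other 3 that the gap divided by the range passed Dixon's critical value for 4 values, and chance gives about 1 in 20. Control 2 was the array in 10 of them, with Adipoq at 2.46 (the other Control arrays between -7.08 and -6.78), Bax at 1.33, Epgn at -0.52, Hsp90b1 at 5.24, Kcnj1 at 6.02, Pgk1 at 6.05 and Tnfrsf12a at 0.92 above the other 3, and Gclm at 1.60, Slc5a12 at 1.74 and Xbp1 at 1.94 below them. Among the other Control arrays, Fosb was low on Control 1 (-3.99), Edn1 (-3.81) and Zfp101 (-0.63) were low on Control 3, and on Control 4 Cyp2e1 was low (5.2) and Trpm6 high (-1.88).

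IRI 4 stood apart in 7 groups. Agtr1b (-6.26), Aqp1 (5.32), Cd4 (-5.22), Ehd3 (-0.14) and Ldha (5.69) were below the other IRI arrays there, and Ankrd1 (0.71) and Csf1r (0.57) above. On IRI 2, Cish (2.43), Crocc (-0.16) and Socs2 (1.04) were above the others and Ppargc1a (0.27) and Sox18 (-2.32) below. Asns was high on IRI 1 (2.19) and Sox7 high on IRI 3 (-1.56).

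For 20 of the named genes limma called a difference between the effect of ischemia without Hemin and that with it, given here as the first minus the second on the log2 scale. The difference was positive for genes that rose more without Hemin, the stress genes Atf4 (1.21), Trib3 (1.84), Bag3 (0.78), Gadd45a (1.38) and Mdm2 (0.51), the cytokines Ccl2 (2.34) and Csf1 (1.06), the licensing factor Cdt1 (0.83) and the endothelial factor Sox7 (1.24). It was negative for the tubular genes Slc5a12 (-1.27), Ddc (-1.52), Kynu (-1.25), Maf (-1.18) and Ppargc1a (-1.51), and for Agtr1b (-2.24), Epgn (-2.04), Osm (-1.19), Tlx2 (-1.36), Trp53 (-0.80) and V1re6 (-2.02). Adjusted p ran from 0.00013 to 0.044. With normexp, the differences of Ddc, Maf and Ppargc1a were called (adjusted p = 0.048, 0.016 and 0.0090) and those of the other 17 were not, with adjusted p from 0.072 to 0.99.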

How the results depend on the processing

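Of 153 named genes that were called, 120 remained called in the same direction with normexp, 146 with quantile normalization, 128 without the 3 arrays with fat transcripts, and 146 to 149 with any 1 array left out. Turned in direction and not called with normexp were Cd4 (0.085), Cd79a (0.068), Ereg (0.19), Il10 (0.19), Mpo (0.10) and Osm (0.12), and with quantile normalization Il10 (0.15).

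Against 3023 genes higher and 6007 lower, normexp gave 1789 and 1394, no normalization between arrays 1976 and 3394, the deposited matrix 1468 and 5757 of 13928 tested, and the added condition of a 2-fold change 1058 and 2533. Quantile normalization gave 3374 and 5086, leaving out 1 array 2690 to 3060 and 5416 to 5764, and leaving out the 3 arrays with fat transcripts, a setting chosen after the data were seen, 2926 and 4212, with 2418 and 3932 genes shared with the main calls. The methods' t-test gave 3132 and 6144 genes at its threshold and 2576 and 5195 after Benjamini-Hochberg.

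Under Hemin, no normalization gave 1340 genes higher (3068 otherwise) and normexp 2295 lower (5199). The difference of effects was called for 1486 genes, for 146 with normexp, 405 with no normalization and 994 to 1591 with 1 array left out.

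Of the lists, 10 had more than 50% of their members higher and 7 to 11 did under the alternatives. More than 50% were lower in 3 lists, in 2 with any 1 array left out, in 1 with quantile normalization and without the arrays with fat transcripts, in 6 when the 75th percentile was taken over probes well above background on all arrays, in 8 in the deposited matrix, and in 0 with normexp and with no filter on dim genes. The cause was not tested.

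The deviations of same-numbered Control and IRI arrays had r between 0.005 and 0.17 over genes, beside -0.17 to 0.07 for arrays of different numbers. For Control 1, 3 and 4 the same-numbered IRI array had the highest r. With 4 arrays a group these values cannot decide whether such arrays share more than a number. With the replicate number as a block 2908 genes were higher and 5824 lower, and Arntl, Ccnd1, Cd79a and Sox18 were no longer called. A random block for the slide could not be fitted, since each group lies on 1 slide.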
